A study of Mus musculus with 24 samples.

Results

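Brain gene expression was compared between 2 RNA processing batches, over the 18 of 24 arrays whose titles name the chimpanzee, the cafeteria or the fast food diet. Of these arrays, 9 carried the label of batch 1 and 9 that of batch 2, with 3 arrays of each diet in each batch. All 18 mice were NMR-1 females, 8 weeks old at the start, and each array held biotin-labelled copies of total RNA from the right cerebral hemisphere of another mouse. Each mouse had eaten a single diet for 2 weeks: the food of captive chimpanzees, cooked cafeteria food or fast food. The other 6 arrays of the series, from mice kept on pellets, were set beside the comparison but did not enter it. Every diet was present equally often in both batches, so diet was a term of the fit and could not stand in for batch. The labels give only the number of the batch, the methods call it one of processing, and neither says which step, day or operator differed, so the p-values below compare 2 sets of libraries and not 2 conditions of the mice.

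An expression array reads labelled RNA through short probes, and the brightness of a probe set depends on the transcript, on the labelling and on the hybridization. Hybridization spike-ins are bacterial and phage transcripts (bioB, bioC, bioD and cre) that are added to every labelled sample in fixed, rising amounts, so that they report on the hybridization and scan and not on the tissue. Ribosomal RNA is most of the total RNA of a cell, lacks the poly(A) tail at which labelling starts and is therefore meant to stay nearly dark. Values below are log2 levels, and a log2 difference is always batch 1 minus batch 2, so that positive values were higher in batch 1. A feature is 1 gene, read by the probe set with its highest mean, or a probe set to which the annotation gives no gene, and 13839 features passed the filter on the mean level (11645 genes and 2194 probe sets with no gene). A feature is called where its adjusted p in limma is under 0.05.

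Of the 9 arrays labelled batch 1, 2 stood apart before any gene was considered. The position of each array was measured on the batch difference of the other 17 arrays over all features, where 0 is the mean of batch 2 and 100 that of batch 1. The 9 batch 2 arrays lay between -23.5 and 26.3. Of the batch 1 arrays, 7 lay between 76.0 and 154.5, chimpanzee batch 1 replicate 1 lay at 12.2 and fast food batch 1 replicate 3 at 37.4. The chimpanzee array thus fell inside the range of batch 2 and the fast food array in the gap between the ranges, nearer to batch 2. After quantile normalization, which forces every array onto the same distribution of values, the chimpanzee array lay at 29.7, again inside the range of batch 2, and the fast food array at 62.2, nearer to batch 1. Both arrays were picked out by their measured values in earlier results of these data, so leaving them out raises the counts by construction. Their labels are used as given, and counts of features and gene lists are also stated without them.

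**Figure D1:**
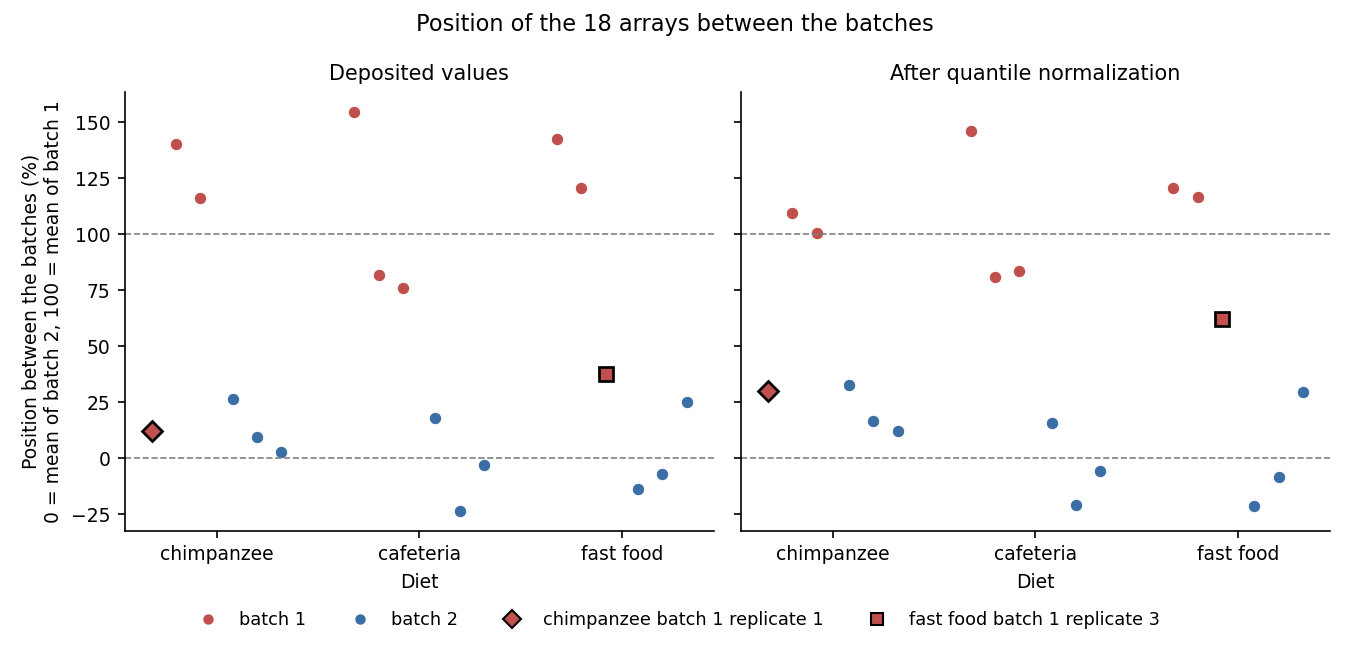
Position of each of the 18 arrays between the batches in percent (vertical axis, 0 = mean of batch 2 and 100 = mean of batch 1 of the other arrays) by diet, for the deposited values and after quantile normalization; each point is 1 array. Chimpanzee batch 1 replicate 1 (diamond) sits at 12.2 among the blue points of batch 2, and fast food batch 1 replicate 3 (square) moves from 37.4 to 62.2.

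The tissue label held on all 18 arrays. Snap25 (a synaptic fusion protein of neurons) was never under 10.86, Slc1a2 (the main glutamate transporter of astrocytes) never under 9.79 and Mbp (myelin basic protein) never under 11.39. RNA of neighbouring structures was present on some arrays of both batches. Gabra6, a GABA-A receptor subunit of cerebellar granule cells, reached 7.32 in cafeteria batch 1 replicate 3 and 7.19 in cafeteria batch 2 replicate 1. The medians of the batches were 3.26 and 3.58. It was also raised in fast food batch 1 replicate 3 (5.95), fast food batch 2 replicate 1 (5.94) and cafeteria batch 1 replicate 1 (5.85). The pituitary hormones Gh and Prl were at 11.65 and 11.28 in cafeteria batch 1 replicate 1 and at 8.26 and 7.98 in fast food batch 1 replicate 1, and no batch 2 array exceeded 5.52 for either.

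The batches differed in 6880 of 13839 features, 49.7% of those tested. Of these, 1309 were higher in batch 1 (9.46%), and 5571 were lower (40.3%). Without both arrays 8323 features were called (60.1%), 1483 of them higher (10.7%) and 6840 lower (49.4%), and 6781 of the 6880 were among them with the same direction. The split by direction depended on the scaling: after quantile normalization 5849 features were called (42.3%), with 3399 higher (24.6%) and 2450 lower (17.7%), so that the share of called features higher in batch 1 went from 19.0% to 58.1%; it was 15.5% with each array centred on its median. The median difference of all features was -0.14 as deposited and 0.03 after quantile normalization, a shift of 0.16 against which the values below should be read. In both scalings 1287 features were higher and 2431 were lower, and 129 were called in opposite directions. By a two-way test after that of the methods, with diet, batch and their interaction, but on probe sets past the filter on mean level in place of detection calls, and with 616 of 21996 probe sets removed for an interaction, 5916 of 13615 genes had p under 0.01 for batch (43.5%) and 7184 passed after Benjamini-Hochberg adjustment (52.8%).

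What a transcript did between the batches followed first of all how bright it was. The features were divided by their mean level into 10 classes of like size, and the median difference was 0.07, 0.03 and -0.01 in the lowest 3 classes, -0.14 in class 6 and -0.47 in the brightest. In the dimmest class, 21.9% were higher in batch 1 and 6.29% lower. In the brightest, 1.01% were higher and 85.3% lower. The brightest class minus the dimmest came to -0.54, to -0.68 without both arrays, and to -0.53, -0.59 and -0.52 when the chimpanzee, cafeteria and fast food mice were each taken alone. Quantile normalization, which by its construction evens out the distributions, left medians of 0.05 in the dimmest and -0.02 in the brightest class. The SD of all log2 values on an array, a measure of how far bright and dim probe sets lie apart, was between 1.81 and 2.02 in batch 1, with a median of 1.89, and between 2.01 and 2.06 in batch 2, with a median of 2.04 (exact permutation test within diets, two-sided, p = 0.0005, adjusted over 16 control measures p = 0.002). The batch 1 values inside the batch 2 range were those of the chimpanzee array (2.02) and of the fast food array (2.02).

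The hybridization spike-ins, which contain no mouse RNA, were lower in batch 1 in the same order. The cre spike-in, the brightest, was between 10.86 and 12.04 in batch 1, with a median of 11.17, and between 11.82 and 12.40 in batch 2, with a median of 12.19. Its difference was -0.80 (exact permutation test, adjusted p = 0.0034), and the ranges overlapped only through the chimpanzee array at 12.04 and the fast food array at 12.03, since the other 7 batch 1 arrays did not exceed 11.48. The bioD, bioC and bioB spike-ins, each dimmer than the one before, differed by -0.54, -0.28 and -0.19 (exact permutation tests, adjusted p = 0.0036, 0.0095 and 0.040). The 400 features nearest in level to each had median differences of -0.58 for cre, -0.46 for bioD, -0.28 for bioC and -0.13 for bioB. Mouse transcripts used as controls lay on the same slope. The 3 prime probe set of Actb (cytoplasmic actin) was at 11.56, 11.83 and 12.87 in batch 1 (lowest, median, highest) and at 12.51, 12.74 and 12.84 in batch 2, and that of Gapdh (a glycolytic enzyme) at 11.38, 11.66 and 12.53 against 12.32, 12.50 and 12.58. They differed by -0.61 and -0.65 (exact permutation tests, adjusted p = 0.0095 and 0.0034), and after quantile normalization by 0.07 and 0.06, in the opposite direction. The probe set of the B1 repeat, a short interspersed element carried in the untranslated parts of many transcripts, differed by -0.64. The cre and B1 differences remained negative after quantile normalization, at -0.17 each. With the mean spike-in level of each array as a covariate, an alternative chosen after seeing the data, 995 features were called between the batches, 148 higher and 847 lower. The spike-in level itself followed the batch, except on the chimpanzee and the fast food array. That fit therefore cannot tell the 2 terms apart, and fewer calls can come from their overlap alone. How far the hybridization accounts for the differences of the mouse transcripts was not tested.

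**Figure D2:**
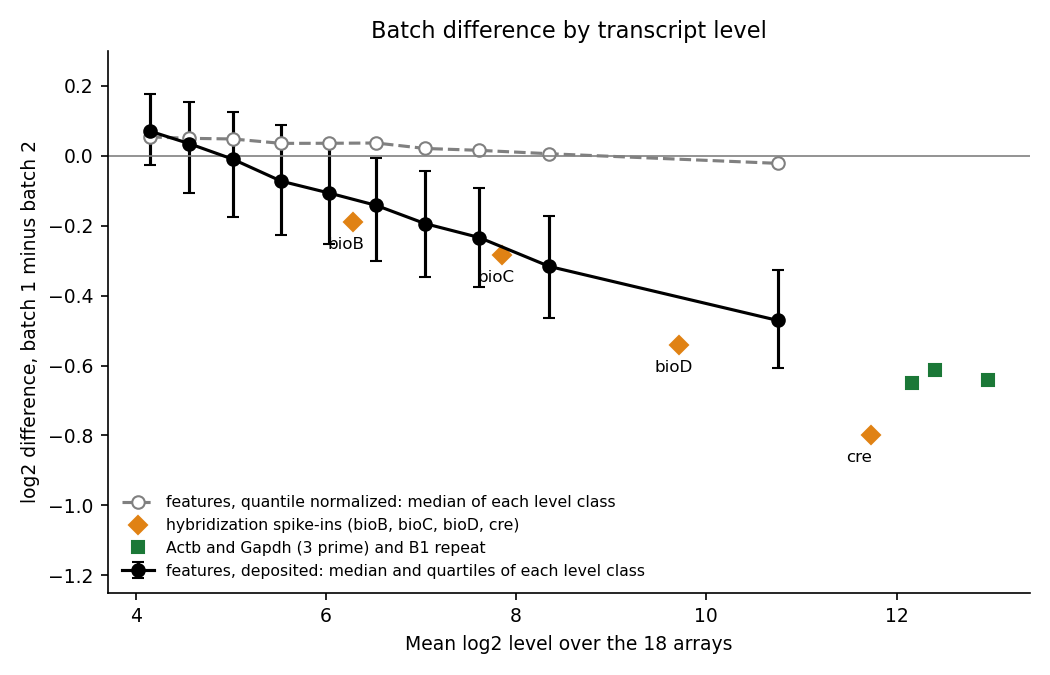
Median log2 difference between the batches (vertical axis, batch 1 minus batch 2) against the mean log2 level over the 18 arrays, by class of level (10 classes of like size), with quartiles as bars for the deposited values; diamonds are spike-ins and squares are Actb, Gapdh and the B1 repeat. The deposited medians run from 0.07 to -0.47, the spike-ins from -0.19 to -0.80, and the quantile-normalized medians lie between -0.02 and 0.05.

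18S ribosomal RNA went the other way from the bright transcripts. Its mean over 3 probe sets was 5.87, 6.04 and 6.59 in batch 1 (lowest, median, highest) and 4.88, 5.06 and 5.15 in batch 2, a difference of 1.08 with no overlap (exact permutation test, two-sided, p = 0.00025, the smallest that 8000 exchanges within diets can give, adjusted p = 0.0013). All 9 arrays labelled batch 1 took part: the fast food array was the highest of all at 6.59 and the chimpanzee array stood at 6.30. Thus the 2 arrays that resembled batch 2 in their spike-ins carried the ribosomal signal of batch 1. By probe set along the molecule, the difference was 1.18 at the 5 prime end, 1.61 in the middle and 0.44 at the 3 prime end, and it was 0.98 over all when both arrays were left out. The usual measures of RNA breakdown gave no difference beyond their spread: Actb 3 prime minus 5 prime signal was 0.50 ± 0.07 in batch 1 and 0.50 ± 0.09 in batch 2 (SD, n = 9 each; exact permutation test, p = 0.91), and that of Gapdh was 0.04 ± 0.03 and 0.01 ± 0.04 (exact permutation test, p = 0.082). The polyadenylated spike-ins (dap, lys, phe and thr), which would enter before labelling, were near background, between 2.95 and 3.06 in batch 1 and between 2.88 and 3.03 in batch 2, and differed by 0.06 (exact permutation test, adjusted p = 0.014).

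The genes with the largest increase in batch 1 formed a distinct group. Cryl1, a crystallin-related dehydrogenase of sugar metabolism, was at 6.62, 10.60 and 10.90 in batch 1 (lowest, median, highest) and at 5.15, 5.79 and 7.88 in batch 2. Pik3cd, the delta catalytic subunit of phosphoinositide 3-kinase, was at 7.72, 10.81 and 11.04 against 6.96, 7.61 and 8.66. Laptm5, a lysosomal membrane protein of blood-derived cells that is often used as a microglial marker, was at 5.45, 8.59 and 9.05 against 4.54, 5.53 and 6.30. In each of them the low end of batch 1 consisted of the chimpanzee and the fast food array, and the other 7 arrays lay wholly above batch 2. Cryl1 differed by 3.32 (SE 0.54, adjusted p = 6.00e-05), a 9.96-fold difference that became 17.1-fold without both arrays. Pik3cd differed by 2.44 (SE 0.39, adjusted p = 5.60e-05) and Laptm5 by 2.43 (SE 0.41, adjusted p = 8.07e-05). Next came Vat1, a vesicle amine transport protein (2.26), E2f5, a transcription factor of the E2F family (2.26), and Ptprk, a receptor tyrosine phosphatase (2.15). They were followed by 1700003E16Rik (1.98), Aif1l, an actin-binding relative of Aif1 (1.92), Nrip2, a nuclear receptor-interacting protein (1.86), and Pttg1, the securin that holds sister chromatids together (1.84). All 10 were called after quantile normalization too, with differences between 2.25 and 3.71. In all 10 the chimpanzee array and the fast food array were nearer the batch 2 mean of their diet. None of the 10 had ranges free of overlap between 9 and 9 arrays, and all 10 had them between the other 7 and 9. Over all features, 0.303% and 2.03% were higher without overlap in these 2 comparisons. The 10 were picked for the size of their difference in the same values.

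Other probe sets of the same genes did not share these large increases. Of the 10 genes, 9 had other probe sets above the filter, 19 in all. Of those 19, 3 were called higher, 5 were called lower and 11 were not called, and the largest increase among them was 0.35. For comparison, 2006 of all 21996 probe sets above the filter were called higher and 9332 lower. Cryl1 read by its 3 other probe sets differed by 0.15, -0.10 and 0.02, and Ptprk, by 5 others, by -0.06 to -0.45, with 3 of them called lower. The 3 other probe sets of Laptm5 differed by 0.24, 0.08 and -0.28, the first called higher and the last lower. The values above are therefore those of single probe sets. Over all features, 47 were called with a difference above 1, and they had the same make-up. They held 38 genes and 9 probe sets with no gene, and 14 of the 47 had the name ending _x_at, which marks probe sets whose probes may bind several transcripts. Among all 13839 features, 2194 were probe sets with no gene and 598 had that ending. The chimpanzee array was nearer batch 2 in 45 of them and the fast food array in 43, both in 42. The 31 genes among them with other probe sets had 57 such probe sets, of which 12 were called higher, by up to 2.06, while 16 were called lower and 29 were not called.

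The genes with the largest decrease mostly separated the batches with both arrays in place. Lin7c, a scaffold protein that holds receptors at synapses and cell junctions, was at 5.92, 6.37 and 6.69 in batch 1 (lowest, median, highest) and at 7.38, 7.66 and 8.00 in batch 2. Dcun1d1, which helps attach NEDD8 to cullin ubiquitin ligases, was at 5.66, 6.12 and 6.31 against 6.91, 7.36 and 7.92. Usp15, a deubiquitinating enzyme, was at 5.74, 6.01 and 6.23 against 6.66, 7.07 and 7.53. The batches did not overlap for any of these genes, with the chimpanzee and the fast food array in place among batch 1. Lin7c differed by -1.30 (SE 0.10, adjusted p = 3.61e-08), Dcun1d1 by -1.27 (SE 0.10, adjusted p = 3.61e-08) and Usp15 by -1.09 (SE 0.09, adjusted p = 6.56e-08). The others of the leading 10 were Slc44a2, a choline transporter-like protein (-1.14), Ywhaz, a 14-3-3 adaptor protein (-0.99), Chn1, a Rac GTPase-activating protein of neurons (-0.98), and Gtf2a1, a subunit of general transcription factor TFIIA (-0.98). The list ended with Lnpk, which shapes the endoplasmic reticulum (-0.98), Pcmtd2, a methyltransferase-domain protein (-0.96), and Rufy3, a neuronal protein of axon growth (-0.95). The ranges of 9 and 9 arrays were free of overlap in 9 of the 10, and Chn1 was the exception: its chimpanzee array reached 11.08 and the lowest batch 2 array was at 11.01. Over all features, 4.77% were lower without such overlap. The 10 were picked for the size of their difference in the same values, which favours ranges free of overlap. Among the 10, the chimpanzee array lay nearer the batch 2 mean of its diet in 3, the fast food array in 3 and both in 2. For Ywhaz both arrays were the highest of batch 1, at 11.27 and 11.26, against at most 10.82 in the other 7, and for Rufy3 the fast food array reached 9.99 against at most 9.46. The decreases also carried over to other probe sets. Of 23 others belonging to 9 of the genes, 20 were called lower, 3 were not called and none was called higher. Among all 21996 probe sets above the filter, 9332 were called lower and 2006 higher. The 3 others of Lin7c differed by -1.05, -1.24 and -0.83. The exception was Slc44a2, whose 2 other probe sets differed by -0.05 each and were not called.

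**Figure D3:**
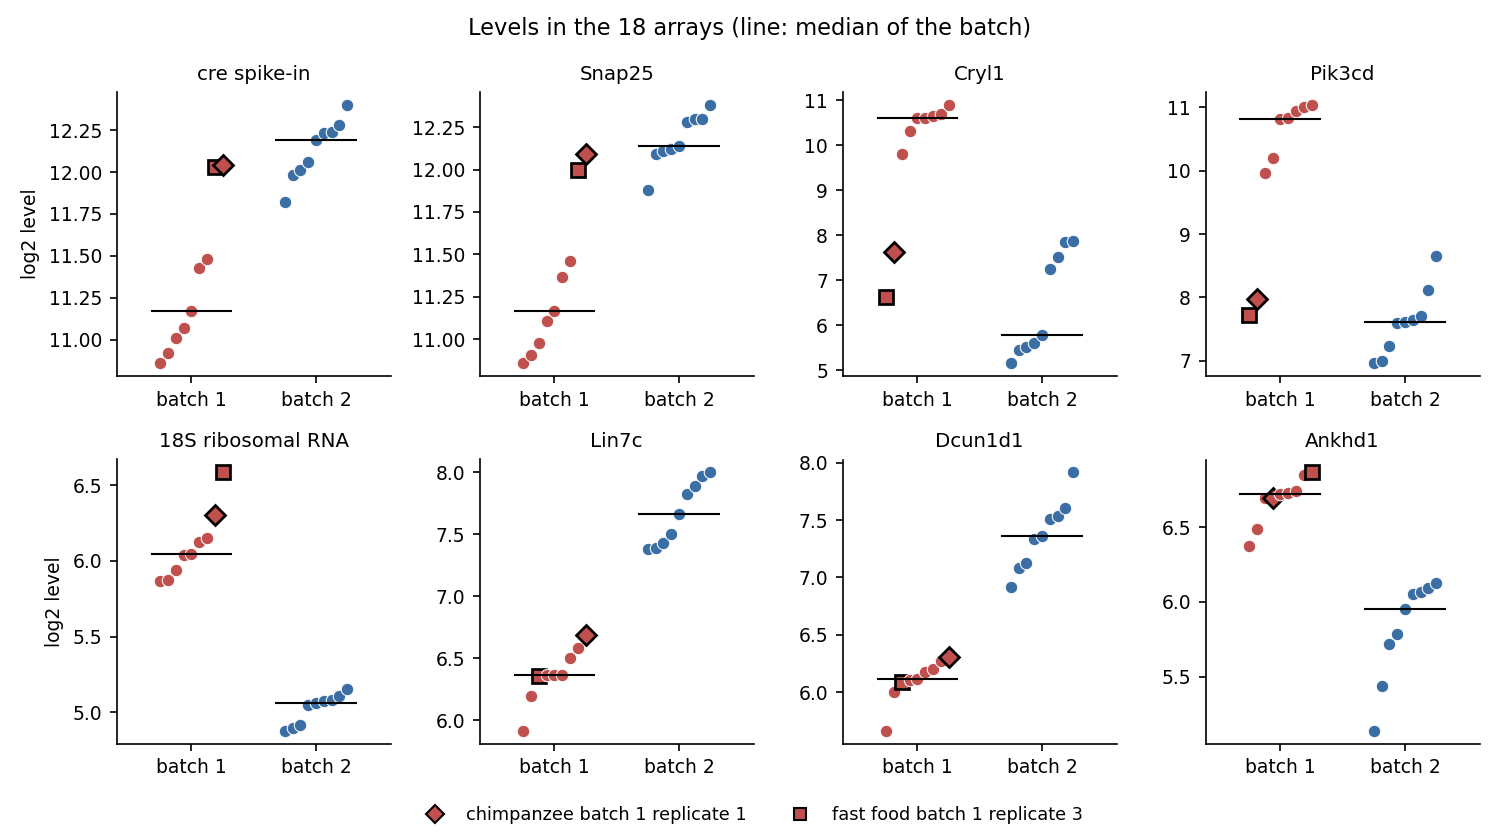
Log2 level (vertical axis) of the cre spike-in, 18S ribosomal RNA and 6 genes on the 9 arrays of each batch, sorted within a batch, with the median as a line; the diamond is chimpanzee batch 1 replicate 1 and the square fast food batch 1 replicate 3. Both lie with batch 2 for the cre spike-in, Snap25, Cryl1 and Pik3cd, and with batch 1 for 18S ribosomal RNA, Lin7c, Dcun1d1 and Ankhd1.

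Genes that separated the 2 sets of 9 arrays completely were mostly lower in batch 1. The ranges did not overlap for 660 features that were lower in batch 1 (4.77%) and for 42 that were higher (0.303%). Between the other 7 and 9 arrays these were 3090 (22.3%) and 281 (2.03%). Besides Lin7c and Dcun1d1, the widest gaps on the lower side were those of Pafah1b2, a subunit of the platelet-activating factor acetylhydrolase of brain (highest in batch 1 7.93, lowest in batch 2 8.42), Atp8a1, a phospholipid flippase (8.54 and 9.02), and Trim37, a ubiquitin ligase (8.42 and 8.88). They differed by -0.93, -0.93 and -0.79. The widest gap on the higher side was that of Ankhd1, an ankyrin repeat protein, with 6.37 as its lowest value in batch 1 and 6.13 as its highest in batch 2, a difference of 0.87 (SE 0.10, adjusted p = 2.77e-06). Both arrays lay inside the range of batch 1 for it, at 6.70 and 6.87. Prr12, a proline-rich nuclear protein, Zfp385a, a zinc finger protein, and Samd5 followed with differences of 0.55, 0.54 and 0.49. Qars, the glutaminyl-tRNA synthetase, differed by 0.88, and there the chimpanzee array (7.43) and the fast food array (7.47) were the lowest of batch 1, just above the batch 2 maximum of 7.32.

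Neuron markers were lower in batch 1, with a median slightly below that of other features of their level. All 17 neuron markers measured were called lower, with a median of -0.49, against 40.3% of all features and a median of -0.14. Relative to the 400 features nearest in level, the same median was -0.09, and after quantile normalization, with 6 lower and 1 higher, it was -0.08. For the brightest markers, Snap25 among them, most of these 400 features were dimmer. The median relative to level can therefore come out too low. Without both arrays all 17 were lower again, against 49.4% of all features, and the median was -0.64. Snap25 was at 10.86, 11.17 and 12.09 in batch 1 (lowest, median, highest) and at 11.88, 12.14 and 12.38 in batch 2; the chimpanzee and the fast food array supplied its upper end. Snap25 differed by -0.85 (SE 0.14, adjusted p = 7.76e-05) and Syt1, the calcium sensor of transmitter release, by -0.74. Array means of the neuron list were 9.30 to 10.11 in batch 1 and 9.96 to 10.30 in batch 2. For inhibitory neurons 5 of 13 markers were lower and 1 higher, with a median of -0.17 that turned to 0.07 after quantile normalization, and Gad1, which makes GABA, differed by -0.52. In such bulk tissue fewer cells of a type and less RNA per cell cannot be told apart.

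Among glia, the markers of oligodendrocytes stayed lower once level was taken into account and those of astrocytes came to 0. Of 14 oligodendrocyte and myelin markers 10 were lower and 1 higher, with a median of -0.44, of -0.20 relative to level and of -0.15 after quantile normalization. Ermn, a myelin cytoskeletal protein, was at 6.54, 6.93 and 7.49 in batch 1 and at 7.18, 7.87 and 8.29 in batch 2, with a difference of -0.87 and of -0.63 after quantile normalization. Mbp differed by -0.83, and by -0.15 after quantile normalization. Sox10, the transcription factor of the lineage, was the member called higher (0.20, adjusted p = 0.016). Of 15 astrocyte markers 11 were lower, with a median of -0.41 that came to 0.00 both relative to level and after quantile normalization. Without both arrays 11 of the myelin and 13 of the astrocyte markers were lower, with medians of -0.50 and -0.54. Over all features 40.3% were lower, and 49.4% without both arrays. Slc1a3, a glutamate transporter of astrocytes, was at 7.87, 7.99 and 8.29 against 8.43, 8.84 and 8.95, free of overlap, and differed by -0.76 (SE 0.06, adjusted p = 3.91e-08). Slc1a2 differed by -0.84. Array means were 8.36 to 8.96 in batch 1 and 8.77 to 9.16 in batch 2 for the astrocyte list, and 7.97 to 8.66 in batch 1 and 8.27 to 8.85 in batch 2 for the myelin list. Oligodendrocyte precursor markers were lower in 6 of 9 cases (median -0.37), Olig1 among them at -0.42.

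Microglial and lining markers were called lower in smaller shares than the 40.3% of all features, and vessel markers in a larger share. Of 13 microglial markers 3 were lower and 1, the Laptm5 probe set, higher, with a median of -0.06 that turned to 0.11 after quantile normalization and array means of 6.66 to 6.96 in batch 1 and 6.57 to 6.88 in batch 2. P2ry12, the purinergic receptor of resting microglia, was at 5.35, 5.58 and 6.09 in batch 1 and at 6.09, 6.41 and 6.76 in batch 2 and differed by -0.77 (SE 0.10, adjusted p = 6.02e-06). Of 13 markers of endothelial cells and pericytes 8 were lower, with a median of -0.25 and array means of 6.26 to 6.65 in batch 1 and 6.58 to 6.92 in batch 2. Slco1c1, a thyroid hormone transporter of brain vessels, was at 7.43, 7.83 and 8.26 against 8.29, 8.67 and 8.85, and differed by -0.73. Itm2a, also of vessels, differed by -0.55. Of 12 markers of choroid plexus and ependyma 3 were lower and 1 higher (median -0.11): Ttr, which carries thyroid hormone in the cerebrospinal fluid, differed by -0.81 and the ependymal gene Ccdc153 by 0.39. Meninges and fibroblasts had 1 lower and 1 higher of 10. Without both arrays 4 microglial, 9 vessel, 4 choroid plexus and 2 meningeal markers were lower, against 49.4% of all features.

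Regional markers spread around the median of all features, of which 40.3% were called lower. Cortical markers were lower in 4 of 14 cases and higher in 1 (median -0.15, turning to 0.06 after quantile normalization): Mef2c, a transcription factor of excitatory neurons, differed by -0.76 and Cux1, of upper cortical layers, by 0.27. In the striatum 4 of 14 were lower (median -0.10, turning to 0.08), with Pde10a, the phosphodiesterase of medium spiny neurons, at -0.63. The thalamus had 2 lower and 1 higher of 14 and the hippocampus 2 lower of 8. Rora, an orphan nuclear receptor listed for thalamus and clock, differed by -0.54, Calb1, a calcium buffer of Purkinje cells, by -0.57 and Synpr, a vesicle protein listed for olfactory bulb, by -0.68. Among the lists of regions and of the pituitary, those with positive medians were the hypothalamus (0.22, 1 of 12 called), the olfactory bulb (0.10), the cerebellum (0.05) and the pituitary hormones (1.25). Without both arrays 7 cortical, 4 hippocampal and 6 striatal markers were lower, shares near the 49.4% of all features. In the same fit 3 markers of the hypothalamus were higher, against 10.7% of all features, and the median of the cerebellum list turned to -0.09. Of 4 pituitary hormones measured, only Pomc was called (1.15, SE 0.44, adjusted p = 0.035), a gene made in the pituitary and in the hypothalamus. The call was lost without both arrays (limma, adjusted p = 0.064) and after quantile normalization (limma, adjusted p = 0.050), and the difference was 2.25 on cafeteria food and 0.13 on fast food. Its highest value, 10.47, came from cafeteria batch 1 replicate 1, the array with the most Gh and Prl. Array means of the pituitary list were 4.10 to 9.64 in batch 1 and 3.99 to 4.99 in batch 2.

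Among gene classes, the direction of those that make energy and protein depended on the scaling. Oxidative phosphorylation, the respiratory chain and ATP synthase, had 50 of 71 members lower and none higher (median -0.37), and after quantile normalization 34 higher and 4 lower (median 0.13). Atp5a1, an ATP synthase subunit, was at 10.36, 10.54 and 11.21 in batch 1 and at 11.27, 11.41 and 11.55 in batch 2, and differed by -0.74; Sdha, the flavoprotein of succinate dehydrogenase, differed by -0.71. Both stayed negative after quantile normalization, at -0.21 and -0.24, against the trend of their list. Cytosolic ribosomal proteins had 26 of 46 lower and 1 higher (median -0.33), and after quantile normalization 25 higher and none lower (median 0.13). Rpl4 differed by -0.65, and Rpl37 was the member called higher (0.35, SE 0.09, adjusted p = 0.0024). Mitochondrial ribosomal proteins had 13 of 73 lower and 1 higher (median -0.08), and 36 higher and 1 lower after quantile normalization (median 0.15); Mrpl50 differed by -0.64 and Mrpl14 by 0.26. The proteasome had 27 of 45 lower and none higher (median -0.29, turning to 0.08), with Psmc5, an ATPase of its cap, at -0.54. Without both arrays 69 members of oxidative phosphorylation, 35 cytosolic and 35 mitochondrial ribosomal proteins and 36 of the proteasome were lower. Their medians were -0.53, -0.52, -0.16 and -0.41. Among all features, 40.3% were lower with both arrays in place and 49.4% without them. In all these classes the median relative to features of like level was positive, at 0.15 for oxidative phosphorylation, 0.14 and 0.17 for the mitochondrial and cytosolic ribosomal proteins and 0.09 for the proteasome.

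Glycolysis, chaperones and lipid synthesis had negative medians in both scalings, though fewer members were called lower after quantile normalization. Glycolysis had 15 of 17 members lower and none higher, with a median of -0.54, and after quantile normalization 2 lower and 1 higher, with a median of -0.07. Aldoa, the muscle-type aldolase that brain shares, differed by -0.69 and Pdha1, the pyruvate dehydrogenase subunit at the exit of the pathway, by -0.71. Heat shock proteins and chaperones had 45 of 75 lower and 4 higher (median -0.31), and after quantile normalization 20 lower and 11 higher (median -0.01). Hspa8, the constitutive Hsc70, differed by -0.88 and Hspa4l by -0.84, while Dnajc21, a J-domain protein of ribosome assembly, differed by 1.05. The chimpanzee array (6.13) and the fast food array (6.35) lay inside the batch 2 range of Dnajc21, 5.25 to 6.68, as did the lowest of the other 7 (6.45). Fatty acid synthesis and desaturation had 14 of 19 lower (median -0.34, and after quantile normalization 6 lower and 2 higher, median -0.12), with the stearoyl-CoA desaturase Scd2 at -0.84 and the elongase Elovl4 at -0.75. Cholesterol synthesis had 11 of 19 lower and 1 higher (median -0.25, and after quantile normalization 7 lower and 4 higher, median -0.04), with Msmo1, a sterol demethylation enzyme, at -0.81 and Hmgcs1, the HMG-CoA synthase, at -0.67. Translation factors had 38 of 55 lower and 3 higher (median -0.30, turning to 0.01): Eef1a1 and Eif4a2, which bring aminoacyl-tRNA to the ribosome and unwind mRNA, both differed by -0.81. Without both arrays the lower members were 17 of glycolysis, 53 chaperones, 15 each of fatty acid and cholesterol synthesis and 44 translation factors. The share of all features that were lower was 40.3%, and 49.4% without both arrays. In the brightest class of features it was 85.3% with both arrays in place. The glycolysis list had a median level of 10.25, inside that class, and a median relative to level of -0.05.

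**Figure D4:**
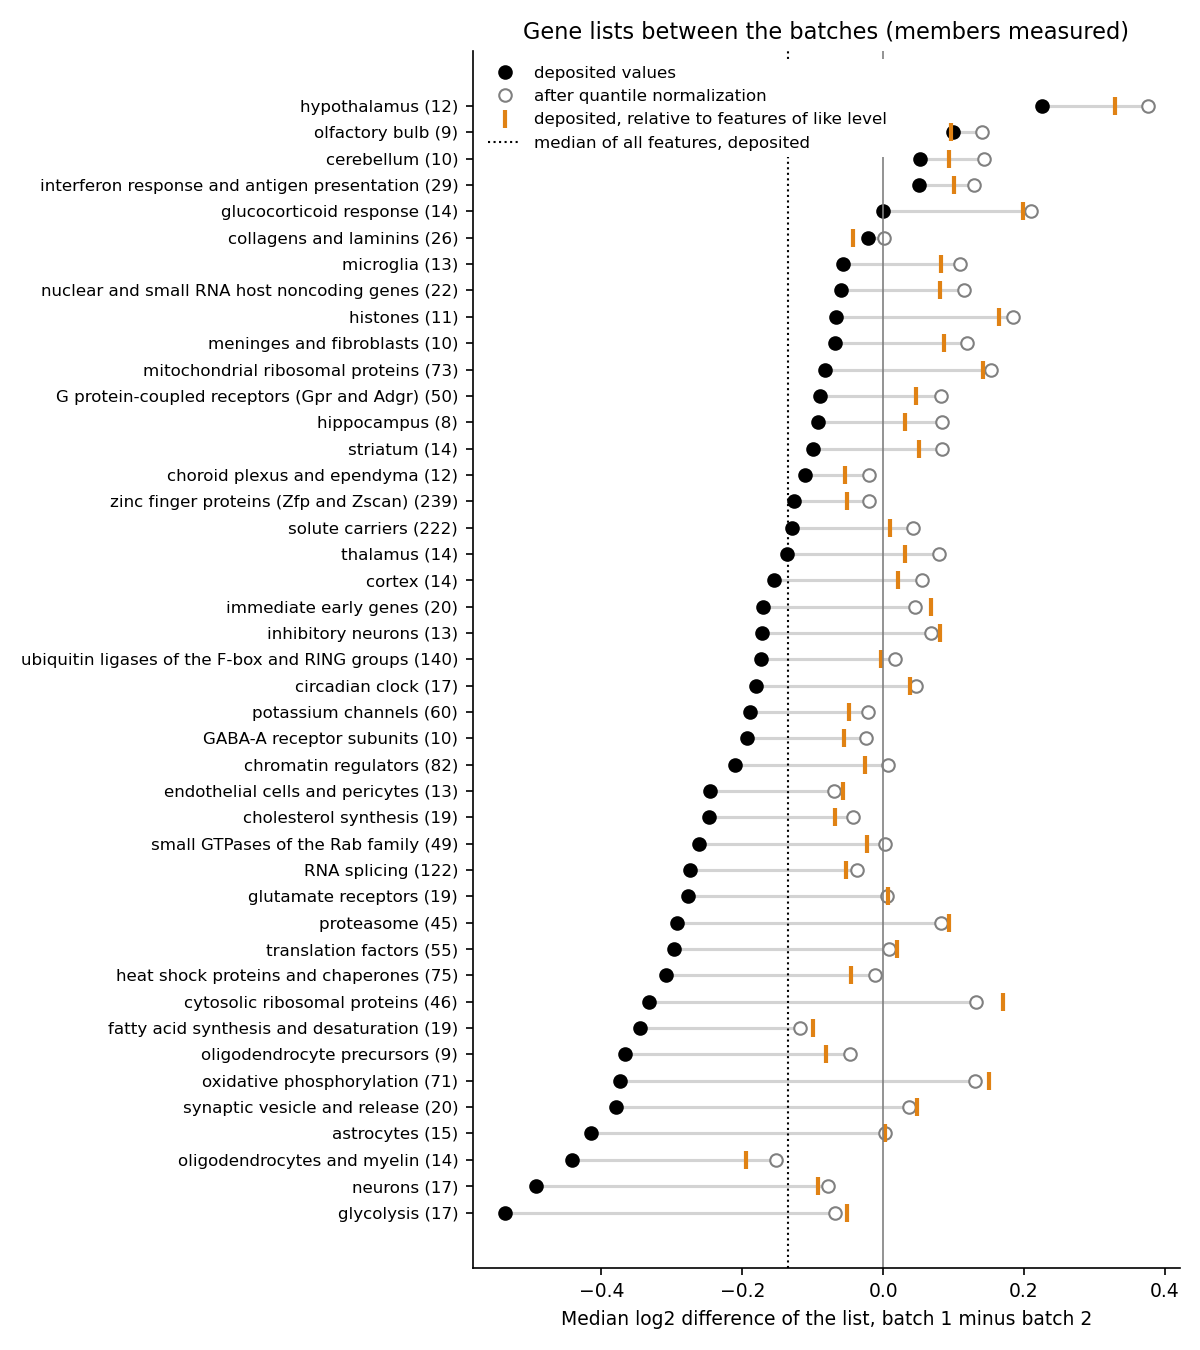
Median log2 difference between the batches (horizontal axis, batch 1 minus batch 2) of each gene list with at least 8 measured members, for the deposited values (filled), after quantile normalization (open) and relative to features of like level (bar); the dotted line is the median of all 13839 features. Glycolysis (-0.54), neurons (-0.49) and myelin (-0.44) lie lowest, and the cytosolic ribosomal proteins and oxidative phosphorylation pass from -0.33 and -0.37 to 0.13.

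RNA splicing genes were mostly lower as deposited, where 40.3% of all features were. Of 122 members 72 were lower and 2 higher, with a median of -0.27, and of -0.05 relative to level. After quantile normalization 31 were lower and 21 higher, with a median of -0.04. Rbm18, an RNA-binding protein, was at 6.06, 6.26 and 6.31 in batch 1 and at 6.64, 7.14 and 7.32 in batch 2, and differed by -0.90 (SE 0.07, adjusted p = 4.72e-08) with both arrays inside batch 1. Srsf5, a serine and arginine-rich splicing factor, differed by -0.92, while Sf3b4, of the U2 particle, differed by 0.27. Chromatin regulators had 44 of 82 lower and 5 higher (median -0.21, turning to 0.01 after quantile normalization): the histone demethylase Kdm5a differed by -0.86 and the deacetylase Hdac11 by 1.03. Zinc finger proteins, dim on average, had 82 of 239 lower and 23 higher, with a median of -0.13 close to that of all features. Zfp60 differed by -0.81 and Zfp945 by 0.50. Among the F-box and RING groups of ubiquitin ligases, 65 of 140 were lower and 10 higher (median -0.17, turning to 0.02), with Trim23 at -0.77 and the F-box genes Fbxo36 and Fbxw22 at 1.14 and 1.05. For Hdac11, Fbxo36 and Fbxw22 too, the chimpanzee and the fast food array were the 2 lowest arrays of batch 1. Without both arrays 84 splicing genes, 56 chromatin regulators, 114 zinc finger proteins and 81 ubiquitin ligases were lower, against 49.4% of all features.

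Among synaptic and signalling genes, the shares called lower can be read against the 40.3% of all features. They must also be read against level, since 85.3% of the brightest class of features were lower. The synaptic vesicle list had a median level of 9.73, inside that class, and a median relative to level of 0.05. Synaptic vesicle and release genes had 16 of 20 lower and 1 higher (median -0.38, turning to 0.04 after quantile normalization); the vesicle proteins Sv2b and Sv2a differed by -0.79 and 0.18. Glutamate receptors had 10 of 19 lower and 3 higher (median -0.28, turning to 0.01). Grik2, a kainate receptor subunit, was at 4.16, 4.42 and 4.53 in batch 1 and at 4.90, 5.34 and 5.79 in batch 2, dim and yet free of overlap, and differed by -0.92 (SE 0.09, adjusted p = 6.28e-07). Gria2, the AMPA receptor subunit that limits calcium entry, differed by -0.70 and Grin2d, an NMDA receptor subunit, by 0.43. GABA-A receptor subunits had 4 of 10 lower (Gabrb2 at -0.67), potassium channels 27 of 60 lower and 2 higher (Kcna2 at -0.69, Kcnh3 at 0.80), and Rab GTPases 28 of 49 lower and 2 higher (Rab2a at -0.92). Their medians were -0.19, -0.19 and -0.26, and after quantile normalization -0.02, -0.02 and 0.00. Solute carriers had 86 of 222 lower and 20 higher, with Slc35a5, a nucleotide-sugar transporter-like protein, at -0.91, and G protein-coupled receptors 17 of 50 lower and 6 higher. The shares of GABA-A receptors, potassium channels, solute carriers and G protein-coupled receptors were thus near that of all features. Without both arrays 19 synaptic vesicle genes, 11 glutamate receptors, 6 GABA-A receptors, 34 potassium channels, 32 Rab GTPases, 103 solute carriers and 22 G protein-coupled receptors were lower. The share of all features was then 49.4%, and Sv2a was no longer called (limma, adjusted p = 0.094).

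Transcripts that answer to activity, time of day or stress were called lower in shares near or under the 40.3% of all features. Immediate early genes had 6 of 20 lower and 2 higher (median -0.17, turning to 0.05 after quantile normalization): Homer1, a postsynaptic scaffold, differed by -0.84 and Egr4, an early growth response factor, by 0.29. Clock genes had 7 of 17 lower and 1 higher (median -0.18, turning to 0.05), with the sister repressors Nr1d2 and Nr1d1 at -0.69 and 0.30. Of 14 glucocorticoid-responsive genes 3 were lower and 2 higher (median 0.00, and 0.21 after quantile normalization), with Klf9 at -0.76, Tsc22d3 at -0.67 and Nfkbia, the inhibitor of NF-kappa-B, at 0.20. Interferon response and antigen presentation had 3 of 29 lower and 1 higher (H2-Ea, a class II antigen, at 0.44), collagens and laminins 4 of 26 lower and 3 higher (Col9a1 at 0.54, Lama5 at 0.49), and histones 1 of 11 in each direction (H1f10 at 0.27). These 3 lists had smaller shares of called members than the 49.7% of all features. Without both arrays 10 immediate early, 9 clock and 6 glucocorticoid-responsive genes were lower, as were 6 collagens and laminins and 4 histones. These counts can be read against 49.4% of all features.

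Noncoding and poorly annotated transcripts were higher in batch 1 more often than coding genes. Of 262 features annotated as long noncoding RNA, 25.6% were higher (67 features, against 42 that were lower), while the shares were 8.16% higher and 43.4% lower among 11295 protein-coding features. Their median level was 4.75 against 6.55, so level differed between these classes as well; relative to level their medians were 0.05 and 0.00. Meg3, an imprinted noncoding RNA that is abundant in neurons, differed by -0.65, and Snhg12, a host gene of small nucleolar RNAs, by 0.38. Genes with provisional symbols were higher in 20.2% and lower in 20.2%, and probe sets with no gene were higher in 13.6% and lower in 27.8%. By the ending of the probe set name, 17.2% of the _x_at features were higher, against 9.57% of those ending in _at alone. Relative to level, the median was 0.11 for the _x_at features and -0.02 for the probe sets with no gene, whose median level was 4.99.

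Gene length ran with the difference beyond level. Genes were divided into 5 classes by the span from first to last base in GRCm38.p6, known for 99.6% of them. In the class of the shortest genes, up to 7.88 kb, 14.3% were higher and 22.7% lower, and in that of the longest, above 76.2 kb, 4.78% were higher and 56.8% lower. Median levels were 6.31 and 6.65 in these classes. Relative to level, the median difference from the shortest to the longest class was 0.11, 0.05, -0.01, -0.06 and -0.09. After quantile normalization the shortest and the longest class had medians of 0.14 and -0.06.

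Probe sets of the same gene did not always move together. Among 5050 genes with several probe sets above the filter, 3126 had called probe sets that were all lower, 486 had called probe sets that were all higher, and 320 had called probe sets in both directions. The range of the difference within a gene, from its lowest to its highest probe set, had a median of 0.23 and was above 1 in 134 genes.

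The chimpanzee and the fast food array did not simply change sides. Over the 8323 features called without them, the chimpanzee array was nearer the batch 2 mean of its diet in 80.8% and the fast food array in 60.9%. Among features lower in batch 1, these shares were 97.2% and 93.8% in the brightest class and 55.3% and 31.1% in the dimmest. Sorted by the difference relative to level instead, the 27 features that were lower by more than 0.75 beyond their level were nearer batch 2 in 22.2% for the chimpanzee array and in 3.70% for the fast food array. Among the 167 between -0.75 and -0.50 the shares were 57.5% and 7.78%, and among the 1676 that were lower by no more than their level 93.3% and 92.8%. On the higher side, the 77 features that exceeded their level by 1 or more, the group of Cryl1 and Pik3cd, were nearer batch 2 in 97.4% and 85.7%, against 66.1% and 40.7% where the excess was under 0.25. Both arrays thus had the spike-in level and the bright transcripts of batch 2 and lacked the large increases, while their ribosomal RNA was at the level of batch 1. The features most decreased relative to level lay nearer batch 1 for the fast food array, and for the chimpanzee array only in the group of 27. Of the 3090 features that were lower without overlap between the other 7 and 9, both arrays reached the batch 2 range in 48.7% and neither did in 21.4%.

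**Figure D5:**
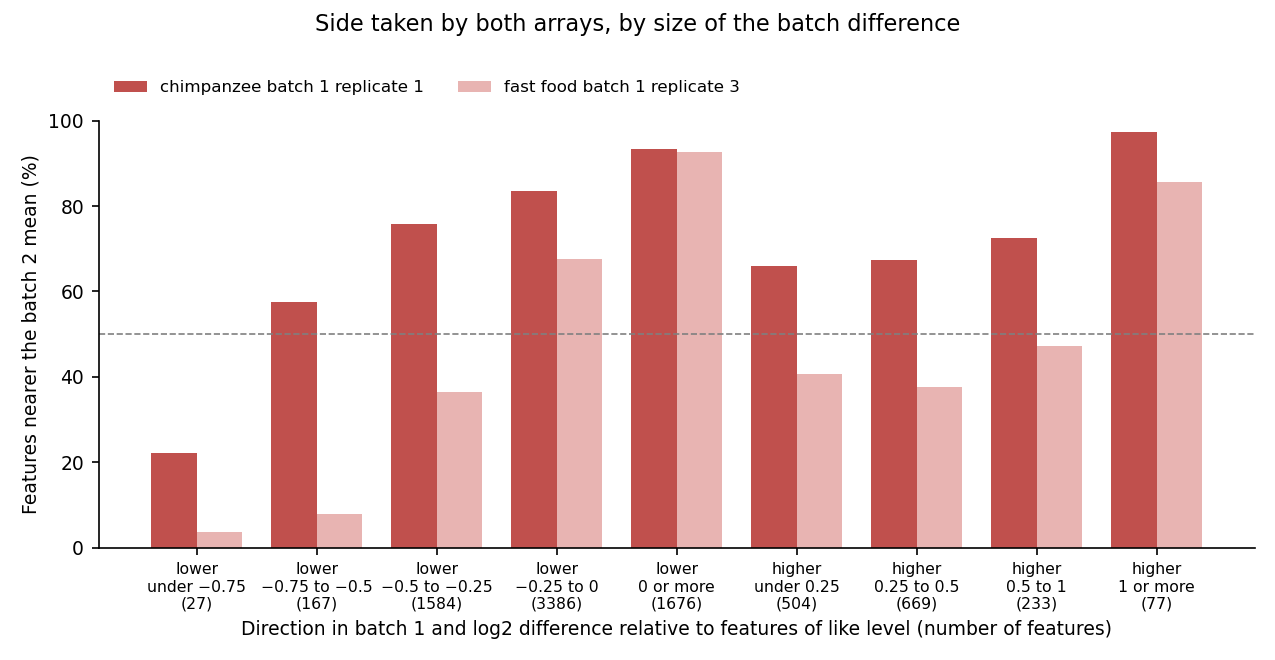
Percent of features for which chimpanzee batch 1 replicate 1 (dark) and fast food batch 1 replicate 3 (light) lay nearer the batch 2 mean of their diet (vertical axis), by direction and by log2 difference relative to features of like level, over the 8323 features called without both arrays. The shares run from 22.2% and 3.70% in the group lowest relative to level to 93.3% and 92.8% in the group lower by level alone, and reach 97.4% and 85.7% in the group highest relative to level.

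On each array the position was also computed over each of 44 lists, and it was under 50, the batch 2 side, for 40 lists on either array, with a median of 11.3 for the chimpanzee and of 27.4 for the fast food array. Lists with a small batch difference do not order the arrays by batch: over the thalamus list, for example, chimpanzee batch 2 replicate 2 lay at 177.3 and chimpanzee batch 1 replicate 3 at -22.9. The chimpanzee array correlated with the other batch 1 arrays at a median r of 0.984 over the features and with batch 2 at 0.986, and the fast food array at 0.988 with either. Both arrays had features of their own. Alb, the plasma protein albumin, was at 5.93 in the chimpanzee array and at most 4.28 in the other 17, and Fam81a was at 10.43 there against at most 9.82. Prkcd, a protein kinase C that marks thalamic relay nuclei, was lowest there at 5.73, against a range of 6.14 to 7.80, and Igsf1, an immunoglobulin superfamily protein, lay at 3.79 against at least 4.46. The thalamus list averaged 5.98 on this array and at least 6.65 on the other 8 of batch 1, and the hippocampus list 7.07 against at most 6.71. In the fast food array the mitochondrial carrier Sfxn5 was at 8.35 against at most 7.94 elsewhere, Fam171a2 at 7.78 against at most 7.34, and Alas2, the heme synthesis enzyme of red cells, at 4.51 against at least 4.77. The chimpanzee array exceeded the other 17 in 1393 features and lay below them in 326, and the fast food array in 1082 and 124; cafeteria batch 1 replicate 1 did so in 1081 and 3361.

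No difference between the diets in the size of the batch step was detected, with 3 arrays for each diet in each batch. No feature had an interaction of diet and batch (0.0% of 13839 by the limma F test), 222 had an unadjusted p under 0.05, and the lowest adjusted p was 0.95. Without both arrays the count at an unadjusted p under 0.05 was 631. Of the 6880 called features, 6799 had the same sign on all 3 diets. By diet, the median difference was -0.15 for chimpanzee food, -0.14 for cafeteria food and -0.12 for fast food; without the array that stood apart it was -0.23 for chimpanzee food and -0.18 for fast food. Taken alone, the cafeteria diet gave 3707 called features and the fast food diet 1913. The chimpanzee diet alone gave none after adjustment, with 2662 at an unadjusted p under 0.05 in limma, and its batch 1 arrays include the one at position 12.2.

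On pellets the named genes ran in the opposite direction. The batch difference on pellets minus that on the other diets was called in 9596 features (69.3%), larger on pellets in 7694 (55.6%) and smaller in 1902 (13.7%). Lin7c was between 7.17 and 7.38 in pellet batch 1 and between 4.74 and 6.55 in pellet batch 2, a difference of 1.41, where the other diets had -1.30. Cryl1 was between 5.69 and 9.80 in pellet batch 1 and between 9.60 and 10.94 in pellet batch 2, a difference of -2.54 against 3.32. Of the 101 genes named here between the batches, 97 had the opposite sign on pellets and the contrast was called in 94. The exceptions were Samd5, Rpl37, Zfp945 and Snhg12, whose differences on pellets were 0.02, 0.16, 0.25 and 0.30. Of all 6880 called features 97.6% had the opposite sign, as had 85.7% of all features tested. The control values were turned around as well: 18S ribosomal RNA was between 4.96 and 5.51 in pellet batch 1 and between 5.92 and 6.43 in pellet batch 2, and the cre spike-in between 11.50 and 12.17 and between 10.52 and 11.68. Pellet batch 2 replicate 1 stood apart, with an SD of all log2 values of 1.58 against 1.83 to 2.04 on the other pellet arrays. Without it the contrast was called in 7785 features. The authors left out 1 pellet brain sample for RNA degradation, and whether it was this one was not tested. All 6 pellet arrays were used with their labels as given. If the batch labels were exchanged on pellets, every pellet difference here would change its sign. Whether they were was not tested.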

How the data were processed

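The authors hybridized total RNA of the right cerebral hemisphere to Affymetrix whole-genome mouse arrays, 1 mouse per array, and deposited log2 expression values made with the robust multi-array average (rma of the affy package). That method includes quantile normalization, yet the SD of the deposited values differed between arrays, so quantile normalization was an alternative. The series matrix held 45101 probe sets. Of these, 64 control probe sets stayed out of the features, 34945 had 1 gene in GEO's platform annotation, 932 had several and were left out, and 9160 are unnamed here. Features had a mean log2 level over all 24 arrays of at least 4.07, the median of all probe sets, and 1 probe set per gene, the one with the highest mean. Gene spans came from a RefSeq table of GRCm38.p6. limma 3.58.1 in R 4.3.3 fitted diet and batch to the 18 arrays, with Benjamini-Hochberg adjustment over all features. Single control values were compared by exact two-sided permutation within diets. A difference relative to level is that of a feature minus the median of the 400 features nearest in mean level. The brightest features shared the same 400, which reached to dimmer levels. Their differences relative to level can therefore come out too low. The script was tested on simulated data. Python 3.11.15, pandas 2.3.3 and matplotlib 3.10.9 made summaries and figures.

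Named genes were picked by rule, but not every gene picked is described. The rules took the 10 genes with the largest difference in each direction that passed with the same sign on each diet. They also took the 2 members of each list with the largest difference in each direction among those that passed. Further picks were the 5 genes in each direction with the widest gap between the batches. For each of both arrays, the 5 genes in each direction farthest from the other 17 were picked. The members and lists were chosen with earlier results of these data known. The authors left out 1 pellet array for RNA degradation, which their methods do not name, and all 6 were used here. Precision is limited by how many arrays there are. The p-values measure the spread between arrays, each with its own mouse and its own labelling and hybridization. With only 2 batches they do not measure how much batches vary. Alternatives were other filters, scalings, models and left-out arrays.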

Additional observations from a re-analysis of the deposited data

Results flagged for a closer look

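Within a batch of 9 arrays, a value was marked where its gap to the nearest other exceeded 0.493 of the whole range, which chance does in about 1 of 20 groups; 29 of 294 were marked. On chimpanzee batch 1 replicate 1, high values were Alb at 5.93, Ptpn1 at 7.86, Fam81a at 10.43, Mef2c at 10.89, Sv2b at 10.07 and the hippocampus list at 7.07, and low values Prkcd at 5.73, Ankrd45 at 4.14 and the thalamus list at 5.98. On fast food batch 1 replicate 3, high values were the middle 18S probe set at 7.47, Rufy3 at 9.99, Meg3 at 10.99, Shfl at 8.22 and the oligodendrocyte list at 8.66, and Mxd1 was low at 5.94. Genes chosen for their distance on these 2 arrays were bound to be marked more often. On cafeteria batch 1 replicate 1, Pomc reached 10.47 and the pituitary list 9.64, and Dcun1d1 (5.66) and Lnpk (5.17) were low. On fast food batch 1 replicate 2 the microglia list averaged 6.96.

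In batch 2, cafeteria replicate 1 was low for the B1 repeat (13.18), Eef1a1 (12.28) and Pdha1 (9.64) and high for the choroid plexus list (6.01). The other marked values of batch 2 were Rbm18 at 6.64 (chimpanzee replicate 2), Egr4 at 7.09 (chimpanzee replicate 1), the pituitary list at 4.99 (chimpanzee replicate 3), the hippocampus list at 6.58 (fast food replicate 1) and the striatum list at 6.64 (cafeteria replicate 2).

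The batch difference on pellets differed from that on the other diets in 9596 features by limma. Among the leading genes that were higher in batch 1, the pellet difference minus the other was -5.86 for Cryl1, -4.66 for Pik3cd, -4.67 for Laptm5, -4.74 for Vat1, -3.78 for E2f5, -4.44 for Ptprk, -3.92 for 1700003E16Rik, -3.06 for Aif1l, -3.62 for Nrip2 and -3.82 for Pttg1. Among those that were lower it was 2.71 for Lin7c, 2.72 for Dcun1d1, 2.43 for Slc44a2, 2.55 for Usp15, 1.92 for Ywhaz, 1.99 for Chn1, 2.02 for Gtf2a1, 2.49 for Lnpk, 2.35 for Pcmtd2 and 2.08 for Rufy3.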

How the results depend on the processing

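The number of features that differed between the batches was between 4608 and 8731 under the alternatives that left it within 1.5 times of 6880, those with no filter (8731), array weights (8357), all 24 arrays (4608) and quantile normalization (5849) among them. It was 11338 with all probe sets kept (2006 higher, 9332 lower), 3707 in the cafeteria diet alone (517 and 3190), 1913 in the fast food diet alone (248 and 1665) and 0 in the chimpanzee diet alone (0 higher and 0 lower, with 2662 at an unadjusted p under 0.05 in limma). When the mean spike-in level entered as a covariate, chosen after seeing the data, it was 995 (148 higher, 847 lower). Features higher in batch 1 numbered 718 with all 24 arrays in the fit, 298 with the filter at the 75th percentile, 3007 with no filter and 3399 after quantile normalization, where 2450 were lower, and 3347 and 2624 after quantile normalization without both arrays, also chosen after seeing the data. Leaving out each array in turn gave 6167 to 7773 features (1116 to 1470 higher, 5015 to 6303 lower), the lowest without cafeteria batch 1 replicate 1 and the highest without chimpanzee batch 1 replicate 1, and no interaction in any of the 18. The pellet contrast was called in 14859 features with no filter, and in 7785 to 10474 when each pellet array was left out.

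Quantile normalization turned the sign of Actb (0.068) and Gapdh (0.059), and bioB (-0.031), bioC (-0.0083), bioD (-0.098) and the polyadenylated spike-ins (0.029, and 0.036 with centred arrays) were no longer called. It moved the positions to 29.7 for the chimpanzee and 62.2 for the fast food array, left 13 of 47 lists with a median below 0, where 40 were so as deposited, and shrank the brightest minus the dimmest class from -0.54 to -0.076; with the spike-in covariate that was -0.15. The cause was not tested, apart from the equal distributions that quantile normalization makes. The median and SD of an array under the scalings that fix them were not run. Of the 101 named genes none changed sign under the alternatives that were checked gene by gene. Quantile normalization without both arrays and the two-way test were not among these. The leading 10 in each direction were chosen for the same sign on each diet, so single diets could not turn them. Genes picked by rule but not described above did change: Ptgds and Bcas1 went from -0.55 and -0.47 to 0.10 and 0.03 after quantile normalization. Of the 101, 93 stayed called after quantile normalization, 99 without both arrays and 49 with the spike-in covariate. In single diets 91 stayed called for cafeteria food, 76 for fast food and 0 for chimpanzee food. With a replicate block, in which arrays with the same diet and replicate number were paired, 6790 features were called, 6601 of them shared with the same sign. Deviations of same-numbered arrays correlated between -0.16 and 0.16, so the numbers were not taken to pair the mice.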
